A study of Mus musculus with 7 samples.

Results

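T cells were examined in 7 single-cell RNA libraries of mouse liver, and 2217 of the 100676 barcodes that passed the quality limits met the rule for a T cell (2.20%). A passing barcode had over 1000 UMIs (unique molecular identifiers, each marking 1 captured transcript) and at most 20% of them from mitochondrial genes. A T cell had at least 4 UMIs of the receptor genes Cd3d, Cd3e, Cd3g, Trac and Trbc2, which also made up at least 0.15% of its UMIs outside the mitochondrial and haemoglobin genes (base UMIs). At least 1 of these UMIs came from Cd3d, Cd3e or Cd3g, and fewer than 2 UMIs came from the B cell genes Cd79a and Cd79b. The levels of these 7 genes therefore chose the cells and are not results. The study concerns ABC-Myc mice (Alb-Cre+/wt::CAG-MYC+/wt), in which an albumin-driven Cre removes a stop cassette before human MYC in the hepatocyte lineage, so T cells are not the cells the transgene was built to reach. Livers were perfused and digested with collagenase IV and loaded on 10x Genomics chips without a sort for T cells. Tumors in the study are NEJ723, NEJ709, NEJ687 and NEJ634, beside healthy livers, whereas the labels call every library a hepatoblastoma murine model, give no genotype or age per library, and repeat the name NEJ634 in the description of NEJ709. Because the labels give 0 groups and no replicates, values are given per library and no difference between groups was tested.

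T cells recognise peptides or other ligands through a receptor made of an alpha and a beta chain, or of a gamma and a delta chain, that signals through the CD3 proteins. Cells with the CD8 coreceptor are mostly cytotoxic and kill with granzymes and perforin, whereas cells with CD4 help other immune cells through cytokines and CD40 ligand. The liver is known for many CD8 T cells, natural killer (NK) cells and innate-like T cells such as NKT and gamma delta T cells.

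The 7 libraries held between 40214395 UMIs in NEJ638 and 132485391 in NEJ634. T cells made up 0.627% of passing barcodes in NEJ634, 4.99% in NEJ638, 8.49% in NEJ654, 8.84% in NEJ677, 3.11% in NEJ687, 0.205% in NEJ709 and 2.30% in NEJ723. The median share was 3.11%, and the highest share was 43.1 times the lowest. The low shares depended on the limits, since with at most 10% mitochondrial UMIs NEJ709 had 0.802% and NEJ634 0.657%, and without T cells of at least 5 other-lineage UMIs they had 0.0838% and 0.143%. Higher shares moved as well. NEJ723 had 0.909% with at least 0.3% receptor UMIs and 1.18% with over 500 UMIs, and NEJ638 had 2.87% with at least 6 receptor UMIs. Shares were highest in NEJ654 (exact 95% Clopper-Pearson interval 7.78 to 9.25%) and NEJ677 (8.18 to 9.53%), which overlap, and lowest in NEJ709 (0.149 to 0.275%). All intervals cover counting error only, since cells of 1 library are not replicates. The number of T cells was 255 in NEJ634, 318 in NEJ638, 482 in NEJ654, 605 in NEJ677, 234 in NEJ687, 44 in NEJ709 and 279 in NEJ723. NEJ709 thus held the fewest T cells, and its levels have the widest intervals. The denominators differed, with 40660 passing barcodes in NEJ634 and 21482 in NEJ709 against 5674 to 12106 in the other libraries. Passing barcodes are those within the limits and not cells called by the study, so the shares are not shares of called cells.

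**Figure D1:**
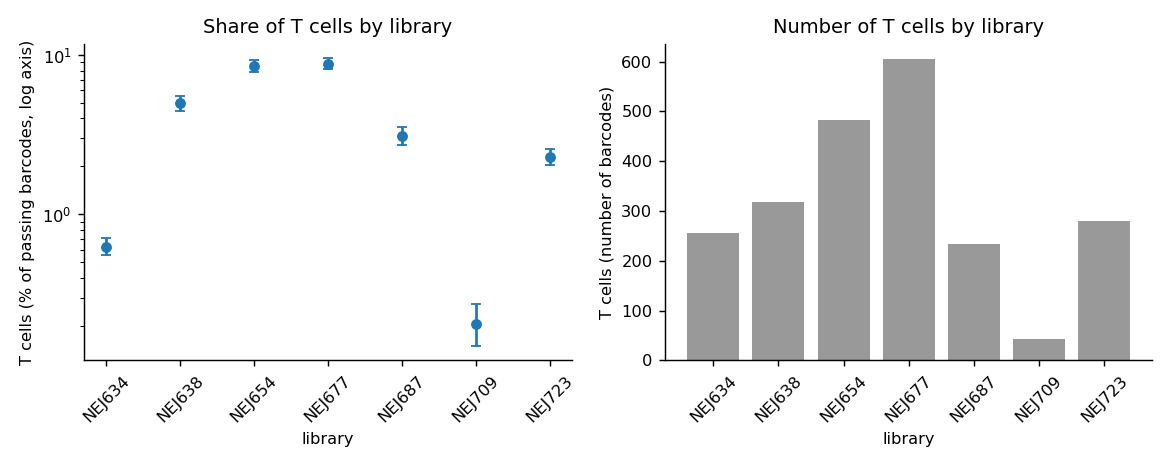
Left, T cells as a percentage of passing barcodes in each library on a log axis, with exact 95% intervals for counting error as bars. Right, the number of T cells. NEJ654 and NEJ677 hold the highest shares (8.49% and 8.84%) and NEJ709 the lowest (0.205%).

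The T cells differed in depth between libraries. In NEJ638 a median T cell held 1845 UMIs, followed by 2626 in NEJ634, 2884.5 in NEJ654, 3266 in NEJ677, 3804.5 in NEJ687, 5360 in NEJ723 and 7512 in NEJ709. The cells of NEJ638 were the shallowest and had the highest median mitochondrial share, 7.67%, against 1.41% to 4.26% elsewhere. Just inside the rule lay 180 cells with exactly 4 receptor UMIs, 63 of them in NEJ634 and 67 in NEJ638, and just outside lay 241 passing barcodes with 3 that met the other limits. A further 201 cells had a receptor share under 0.2%, and 150 barcodes of 0.1 to 0.15% were outside. No barcode was a T cell in more than 1 library, and 58 T cells had a barcode that also passed in another library.

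The label of the cells was checked with T cell genes outside the rule. Of 24 genes of T cell identity and receptor signalling, 22 exceeded both the other passing barcodes and the free RNA of their library in all 6 libraries with at least 50 T cells, with the lower bound of the Poisson interval as the criterion. Of all 17095 genes with a UMI in T cells, leaving out those of the rule, 736 (4.31%) met this criterion. Of the 2592 genes with a median of at least 50 counts per 1000000 base UMIs (CPM) it was 513 (19.8%), beside 20 of the 22 list genes at that level. Free RNA was read from the barcodes with under 100 UMIs. The exceptions were Lcp2, an adaptor of receptor signalling that myeloid cells also use, and Fyn, a widely expressed kinase. Trbc1, the other beta chain constant gene, stood at 436 CPM in NEJ634, 435 in NEJ638, 644 in NEJ654, 462 in NEJ677, 496 in NEJ687, 454 in NEJ709 and 408 in NEJ723. These values lie within a factor of 1.6 over the libraries of at least 50 cells, above free RNA at 17.1 to 48.7 CPM. NK cells, defined by at least 3 UMIs of Ncr1, Klrb1c and Klre1 without any Cd3 UMI, held Trbc1 at 184 to 531 CPM, which overlaps the range of the T cells, and the whole identity list at 2030.2 to 3916 CPM against 3382 to 5454 CPM in T cells. The B cell marker Igkc was at 0 to 26.5 CPM in T cells and at 1428 to 16990.5 CPM in B cells (at least 4 UMIs of Cd79a and Cd79b and none of the receptor genes). Of the same list, Ighm was at 44.5 to 124 CPM and Cd74 at 6.03 to 141 CPM in T cells of the 6 libraries. The limits on Cd79a and Cd79b had already set these classes apart, so the B cell genes are no check of the label.

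RNA of other lineages was uneven between libraries. The neutrophil list (8 genes, led by S100a8 and S100a9) summed to 12684 CPM in NEJ634, 354 in NEJ638, 128 in NEJ654, 265 in NEJ677, 3030.01 in NEJ687, 4127 in NEJ709 and 549.7 in NEJ723 in T cells. NEJ634 stood highest in T cells, and free RNA held the list at 36771 CPM in NEJ634 and at 85633 CPM in NEJ709. At least 5 UMIs of other-lineage markers were held by 508 T cells. They were 197 of 255 T cells in NEJ634, 36 of 318 in NEJ638, 116 of 482 in NEJ654 and 60 of 605 in NEJ677. In NEJ687 they were 24 of 234, in NEJ709 26 of 44 and in NEJ723 49 of 279. No gene of the B cell, myeloid, neutrophil, erythroid, hepatocyte or endothelial lists exceeded the other passing barcodes or free RNA in all 6 libraries. The other passing barcodes include cells of these lineages, so this comparison cannot show how much of their RNA the T cells held. The part of this RNA in the T cell values below was not tested, and free RNA is given beside several of the lists and genes.

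The tested genes of the identity and signalling list differed less than 4-fold between libraries. A wide range was called where a gene reached 100 CPM in its highest library, there at least 2 times the other passing barcodes, and was at least 4-fold above its lowest library with separate Poisson intervals. This call used the 6 libraries of at least 50 T cells and left out NEJ709. A gene enters the test through its highest library alone, so counts of called list members are a description. Over all genes, 93 of 482 tested (19.3%) were called, beside 0 of 16 tested genes of the identity list. The count over all genes was 33 of 372 without NEJ638 and 47 of 479 without NEJ723. Cd28, the costimulatory receptor, had a ratio of 3.79 from 52.2 CPM in NEJ723 to 198 in NEJ654. Cd5, a receptor that dampens receptor signalling, ranged 3.76-fold from 34.8 CPM in NEJ723 to 131 in NEJ677. The kinases Lck (137 to 341 CPM) and Zap70 (51.5 to 89.0 CPM) that start the signal, and the transcription factor Bcl11b (94.0 to 243 CPM), moved less. NEJ723 held the lowest sum of the list, 3382 CPM, and NEJ677 the highest, 5454 CPM.

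Cd8-gated T cells outnumbered Cd4-gated T cells in 7 of 7 libraries. A Cd8-gated cell had at least 1 UMI of Cd8a or Cd8b1 and none of Cd4, and a Cd4-gated cell the reverse. The Cd8 gate thus draws on both Cd8a and Cd8b1 and the Cd4 gate on Cd4 alone. This favours the Cd8 gate, so the counts do not give the ratio of the lineages. The gates held 88 and 5 cells in NEJ634, 89 and 9 in NEJ638, 149 and 62 in NEJ654, 266 and 75 in NEJ677, 93 and 17 in NEJ687, 19 and 3 in NEJ709, and 168 and 5 in NEJ723. Over all libraries 6 cells met both conditions, and between 38.0% of cells in NEJ723 and 69.2% in NEJ638 met neither, so the gates count cells with a captured coreceptor transcript and not all cells of a lineage. Because depth sets how often a UMI is seen, each cell was also thinned to 1000 base UMIs, which left out 23 shallower cells. Cd8-gated shares were then 17.2% in NEJ634, 20.5% in NEJ638, 16.9% in NEJ654, 29.4% in NEJ677, 23.1% in NEJ687, 22.7% in NEJ709 and 31.7% in NEJ723. Cd4-gated shares were 0.410% in NEJ634, 1.60% in NEJ638, 5.42% in NEJ654, 5.81% in NEJ677, 2.99% in NEJ687, 2.27% in NEJ709 and 0.360% in NEJ723. NEJ654 and NEJ677 held the highest Cd4-gated shares, 5.42% (3.57 to 7.84) and 5.81% (4.08 to 7.99), with intervals above those of NEJ634 (0.0104 to 2.26%) and NEJ723 (0.00911 to 1.99%). B cells, which should lack both coreceptors, were Cd8-gated in at most 0.218% and Cd4-gated in at most 0.195% of thinned cells, with median depths of 1471.5 to 3584 UMIs against 1845 to 7512 in T cells.

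**Figure D2:**
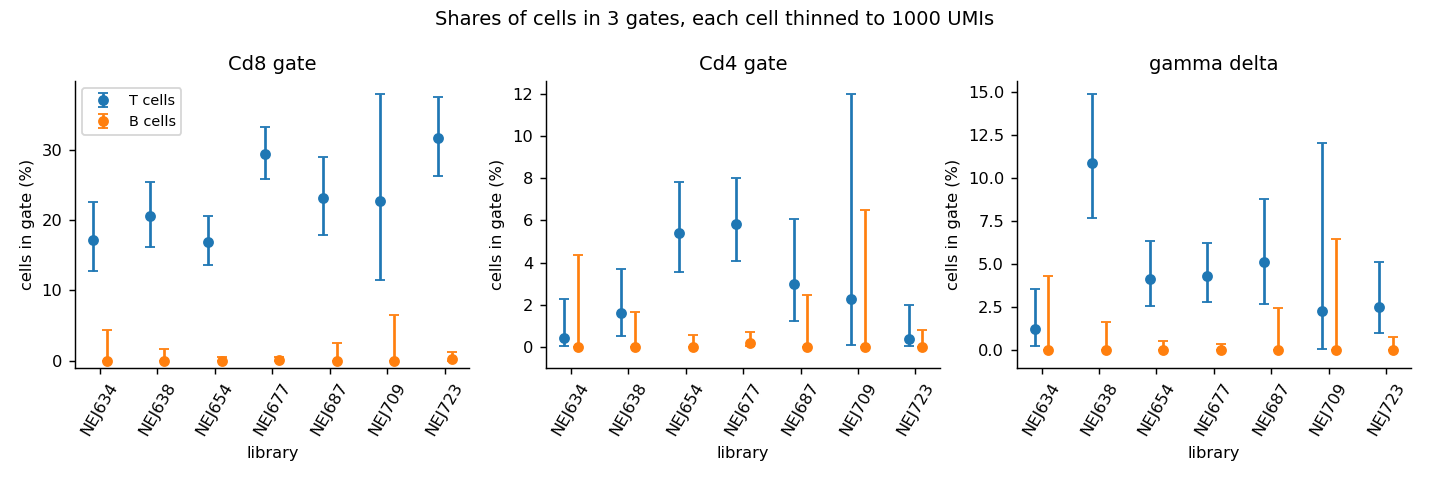
Share of T cells (blue) and B cells (orange) in the Cd8, Cd4 and gamma delta gates per library, each cell thinned to 1000 base UMIs, with exact 95% intervals for counting error. The Cd8 gate holds 16.9% to 31.7% of T cells, the Cd4 gate 0.360% to 5.81%, and B cells stay near 0 in all 3 gates.

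Levels summed over all T cells were also read for the lineage genes. Cd8b1, the beta chain of CD8, was at 168 CPM in NEJ634, 167 in NEJ638, 182 in NEJ654, 413 in NEJ677, 188 in NEJ687, 276 in NEJ709 and 327 in NEJ723. Its highest values were in NEJ677 and NEJ723, and NEJ638, NEJ634 and NEJ654 had the lowest. Cd8a, the alpha chain that some NK-like and gamma delta cells also carry, ranged only from 103 CPM in NEJ654 to 169 CPM in NEJ723. Cd4 was at 7.42 CPM in NEJ634, 14.9 in NEJ638, 53.4 in NEJ654, 43.6 in NEJ677, 33.6 in NEJ687, 18.2 in NEJ709 and 5.36 in NEJ723, which in NEJ634, NEJ638, NEJ709 and NEJ723 rested on 6 to 9 UMIs. Runx3, a transcription factor of the CD8 lineage, was at 186 to 378 CPM and was not called. Zbtb7b, which directs the CD4 lineage, stayed at 1.34 to 17.5 CPM and did not exceed the other barcodes in any library.

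Cd40lg, the CD40 ligand through which helper T cells activate B cells and macrophages, had the widest range of all called genes. Its level was 3.71 CPM in NEJ634, 170.2 in NEJ638, 74.6 in NEJ654, 76.5 in NEJ677, 19.8 in NEJ687, 24.2 in NEJ709 and 3.35 in NEJ723. NEJ638, NEJ654 and NEJ677 stood high, NEJ687 and NEJ709 were intermediate, and NEJ634 and NEJ723 held only 3 and 5 UMIs. The interval was 139 to 206 CPM in NEJ638 and 1.09 to 7.81 CPM in NEJ723, a 50.8-fold ratio. In NEJ638 the 103 Cd40lg UMIs came from 38 cells, with 9 in the cell that held the most, and in NEJ677 the 170 UMIs came from 92 cells. In NEJ638 most lay outside the Cd4 gate, with 96 UMIs in cells of neither gate and 7 in Cd4-gated cells.

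Genes that separate the gates were sought in NEJ654 and NEJ677, the only libraries with at least 50 cells in each gate. A gene was called where it differed at least 2-fold in the same direction in both libraries and reached 100 CPM in the higher gate over both libraries together. The coreceptor genes that made the gates were left out. Higher in Cd8-gated cells were 9 of 1421 genes tested (0.633%), and higher in Cd4-gated cells were 21 (1.48%). In NEJ677 alone 23 genes were higher in Cd8-gated and 48 in Cd4-gated cells, and in NEJ654 alone 17 and 113.

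The 9 genes of the Cd8 gate were led by NK-type receptors and cytotoxic effectors. Klrd1, which encodes CD94, was at 299 CPM in Cd8-gated and 61.2 CPM in Cd4-gated cells of NEJ654, and at 241 and 19.7 CPM in NEJ677. Gzma, a granzyme that cleaves proteins of the target cell, was at 1073 against 251 CPM and at 1283 against 161 CPM in the same order. Gzmb, the granzyme that activates caspases in target cells, was at 499 against 128 CPM and at 366 against 82.7 CPM. The smallest log2 fold over both libraries was 2.29 for Klrd1, 2.10 for Gzma, 1.96 for Gzmb, 1.95 for Cd7, 1.85 for Fcer1g, 1.76 for Ccl5, 1.70 for Fam241a, 1.31 for Ccl4 and 1.11 for Klk8. Cd7 is a costimulatory receptor, Fcer1g an adaptor of activating receptors, and Ccl5 and Ccl4 are chemokines. These folds set the Cd8 gate against the Cd4 gate and not against the cells of neither gate. Gzmb, Cd7, Fcer1g and Ccl4 were higher over all T cells than in the Cd8 gate in both libraries. Ccl5, Fam241a and Klk8 were lower over all T cells in both. Klrd1 over all T cells was at 276 CPM in NEJ654 and 239 CPM in NEJ677. Both values lie within the intervals of the Cd8 gate, 254 to 350 and 213 to 271 CPM. Gzma over all T cells was at 1655 CPM in NEJ654, above the Cd8 gate, and at 1175 CPM in NEJ677, below it. Fcer1g over all T cells was at 666 CPM in NEJ654 and 433 CPM in NEJ677, below free RNA at 1043 and 914 CPM. Of the cytotoxic effector list 4 of 8 tested genes were called, and of the innate-like and NK receptor list 2 of 3, beside 0.633% of all genes tested, which describes the lists and tests nothing. With the T cells that held any UMI of Ncr1, Klrb1c or Klre1 left out, Fcer1g turned to -0.13 in its smaller library and Ccl4 fell to 0.43, both short of the 2-fold limit.

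Cd4-gated cells were higher in Cd40lg, Tnf and the costimulatory receptors Icos and Tnfrsf18. Cd40lg was at 117 CPM in Cd4-gated and 9.53 CPM in Cd8-gated cells of NEJ654, and at 201 and 6.22 CPM in NEJ677. Its log2 fold of Cd8 over Cd4 gate was -3.62 and -5.01. Tnf, the inflammatory cytokine, stood at 228 against 49.5 CPM in NEJ654 and at 224 against 48.0 CPM in NEJ677. Maf, a transcription factor of helper and innate-like T cells, had log2 folds of -1.98 and -3.09, and the interferon-induced surface protein Ly6a -1.93 and -2.49. Icos had -2.48 and -1.56, and Cd5 -1.40 and -1.49. The remaining named genes, Tmem64, Tesc, Rcbtb2, Dnase1l3, Igfbp7 and Igfbp4, had smallest log2 folds from -2.28 for Tmem64 to -1.38 for Igfbp4. With at least 0.3% receptor UMIs Dnase1l3 moved to -0.21 and Igfbp4 to -0.75, and without T cells of at least 5 other-lineage UMIs Igfbp7 moved to -0.13, all short of the 2-fold limit. In NEJ654 and NEJ677, Maf over all T cells was at 113 and 121 CPM against 196 and 268 CPM in free RNA, and Ly6a at 187 and 143 CPM against 147 and 177 CPM. Igfbp4 was at 110.1 and 132 CPM against 406 and 442 CPM in free RNA, Igfbp7 at 92.3 and 86.4 CPM against 924 and 965 CPM, and Dnase1l3 at 58.1 and 45.4 CPM against 400.2 and 499.6 CPM. With the 0.3% limit 28 genes were higher in the Cd4 gate, 13 of them among the 21. Dnase1l3 is also on the list of endothelial genes, which sinusoidal endothelium expresses, and its part in the Cd4-gated sums was not tested.

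**Figure D3:**
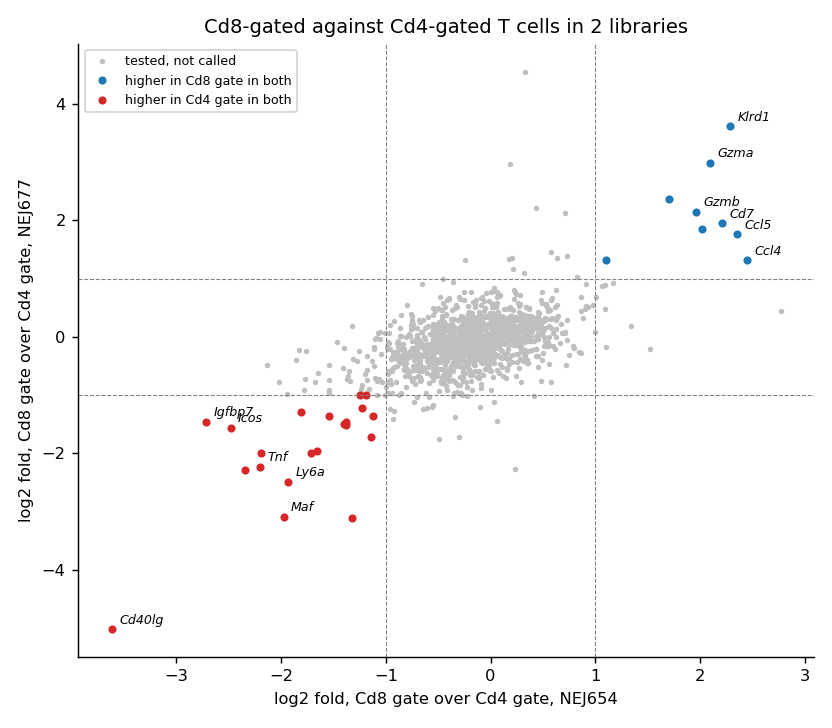
Log2 fold of Cd8-gated over Cd4-gated T cells for 1421 genes in NEJ654 (horizontal) and NEJ677 (vertical), with dashed lines at 2-fold. Blue points are the 9 genes higher in the Cd8 gate in both libraries, red points the 21 higher in the Cd4 gate, and Cd40lg lies farthest towards the Cd4 gate at -3.62 and -5.01.

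The cytotoxic effector genes had a higher sum than the identity list in every library. The 18 genes summed to 8449 CPM in NEJ634, 10676 in NEJ638, 12959 in NEJ654, 12195.5 in NEJ677, 20712 in NEJ687, 9517 in NEJ709 and 4583 in NEJ723. NEJ687 was highest and NEJ723 lowest, a ratio of 4.52 for a pair of libraries chosen after their values were seen. Free RNA held 648 to 2133 CPM of the list, and in all 6 libraries 11 of 18 genes exceeded the other barcodes and 9 exceeded free RNA, beside 4.92% and 7.56% of all genes with a UMI in T cells. Among genes with a median of at least 50 CPM the counts were 9 of 11 list genes for either, beside 21.9% and 34.2% of all genes. Of the 18 genes, 10 entered the wide range test and 7 were called, beside 19.3% of all genes tested.

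Ccl5, a chemokine that recruits T cells and monocytes, gave the largest part of the sum. Its level was 4618 CPM in NEJ634, 5470.2 in NEJ638, 7260.4 in NEJ654, 7337 in NEJ677, 11809.5 in NEJ687, 5408 in NEJ709 and 2296 in NEJ723. The lowest library, NEJ723, had an interval of 2219.6 to 2374 CPM and the highest, NEJ687, one of 11599 to 12023 CPM, a 5.14-fold ratio. Free RNA stood at 173 to 1036 CPM. Gzma was at 1366 CPM in NEJ634, 968 in NEJ638, 1655 in NEJ654, 1175 in NEJ677, 3553 in NEJ687, 1919.7 in NEJ709 and 279.9 in NEJ723. NEJ687 was again highest and NEJ723 lowest, 12.7-fold apart. Gzmb was at 822 CPM in NEJ634, 889 in NEJ638, 671 in NEJ654, 429 in NEJ677, 1679 in NEJ687, 808 in NEJ709 and 209 in NEJ723, with the same extremes and an 8.04-fold ratio. The Gzmb UMIs of NEJ687 came from 144 cells with 305 of the 1698 in 1 cell, and those of NEJ723 from 60 cells, whereas in NEJ709 1 cell held 86 of 267 Gzmb UMIs and 141 of 634 Gzma UMIs. Among cells thinned to equal depth, Gzmb was seen in 32.8% in NEJ634, 33.3% in NEJ638, 25.4% in NEJ654, 19.1% in NEJ677, 45.3% in NEJ687, 22.7% in NEJ709 and 11.2% in NEJ723. The extremes were again NEJ687 (38.8 to 51.9%) and NEJ723 (7.70 to 15.5%), and B cells held a Gzmb UMI in at most 1.82%.

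Gzma and Gzmb had their highest and lowest levels in the same libraries and were both higher in Cd8-gated than in Cd4-gated cells of NEJ654 and NEJ677, so their promoters are shown. Each stretch covers 250 bases before and 50 after the gene start on the gene's own strand, from RefSeq with build GRCm38.p6, and is printed 5′ to 3′. Capitals mark matches to TGTGGT, the core letters bound by RUNX factors, or to its reverse complement ACCACA. Gzma lies on the minus strand at chr13:113100932-113101231 and Gzmb on the minus strand at chr14:56262285-56262584.
Gzma: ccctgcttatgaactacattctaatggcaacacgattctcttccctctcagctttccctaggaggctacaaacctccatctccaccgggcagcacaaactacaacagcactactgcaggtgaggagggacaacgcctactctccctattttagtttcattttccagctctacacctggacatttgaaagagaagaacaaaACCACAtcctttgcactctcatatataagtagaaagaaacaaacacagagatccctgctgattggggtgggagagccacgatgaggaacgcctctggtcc
Gzmb: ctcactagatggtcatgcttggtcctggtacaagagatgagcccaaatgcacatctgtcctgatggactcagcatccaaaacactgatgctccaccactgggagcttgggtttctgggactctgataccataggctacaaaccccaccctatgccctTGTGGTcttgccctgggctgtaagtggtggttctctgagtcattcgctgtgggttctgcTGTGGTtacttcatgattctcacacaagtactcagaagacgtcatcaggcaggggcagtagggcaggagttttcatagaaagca
Gzma holds 1 match, which begins 50 bases before the gene start, and Gzmb holds 2, which begin 93 and 34 bases before it. Of all 32851 promoters of this length in the table, 16.8% hold at least 1 match, against 8 of 18 promoters of the 14 cytotoxic effector genes found there, some of which have several starts. The match is a description of these letters and not evidence of binding.

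The other cytotoxic genes did not share 1 order of libraries. Ifng, the cytokine interferon gamma, was at 49.5 CPM in NEJ634, 322 in NEJ638, 369 in NEJ654, 302 in NEJ677, 242 in NEJ687, 69.6 in NEJ709 and 103 in NEJ723. It was highest in NEJ654 and lowest in NEJ634, 7.47-fold apart. Nkg7, a granule protein, was at 575 CPM in NEJ634, 598 in NEJ638, 1066 in NEJ654, 1103 in NEJ677, 1367 in NEJ687, 497 in NEJ709 and 826 in NEJ723 and was not called at 2.38-fold. Fasl, the ligand of the death receptor Fas, ranged 7.61-fold from 13.4 CPM in NEJ723 to 102 in NEJ687. Ctsw, a protease of cytotoxic cells, moved only 1.68-fold and was highest in NEJ723 at 435 CPM. Perforin (Prf1), at 8.26 to 46.5 CPM, and Gzmk, at 0 UMIs in NEJ723 and 71.2 CPM in NEJ687, were too low for the call. Ccl4, a chemokine of activated lymphocytes and myeloid cells, was at 174 CPM in NEJ634, 1239 in NEJ638, 837 in NEJ654, 756 in NEJ677, 696 in NEJ687, 124 in NEJ709 and 75.0 in NEJ723. It was highest in NEJ638, and in NEJ634, NEJ709 and NEJ723 it did not exceed the free RNA of 293, 167 and 141 CPM. Ccl3, a related chemokine, ranged 25.9-fold between 8.03 CPM in NEJ723 and 208 CPM in NEJ638. In NEJ634, NEJ709 and NEJ723 it did not exceed the free RNA of 84.4, 45.05 and 60.5 CPM.

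**Figure D4:**
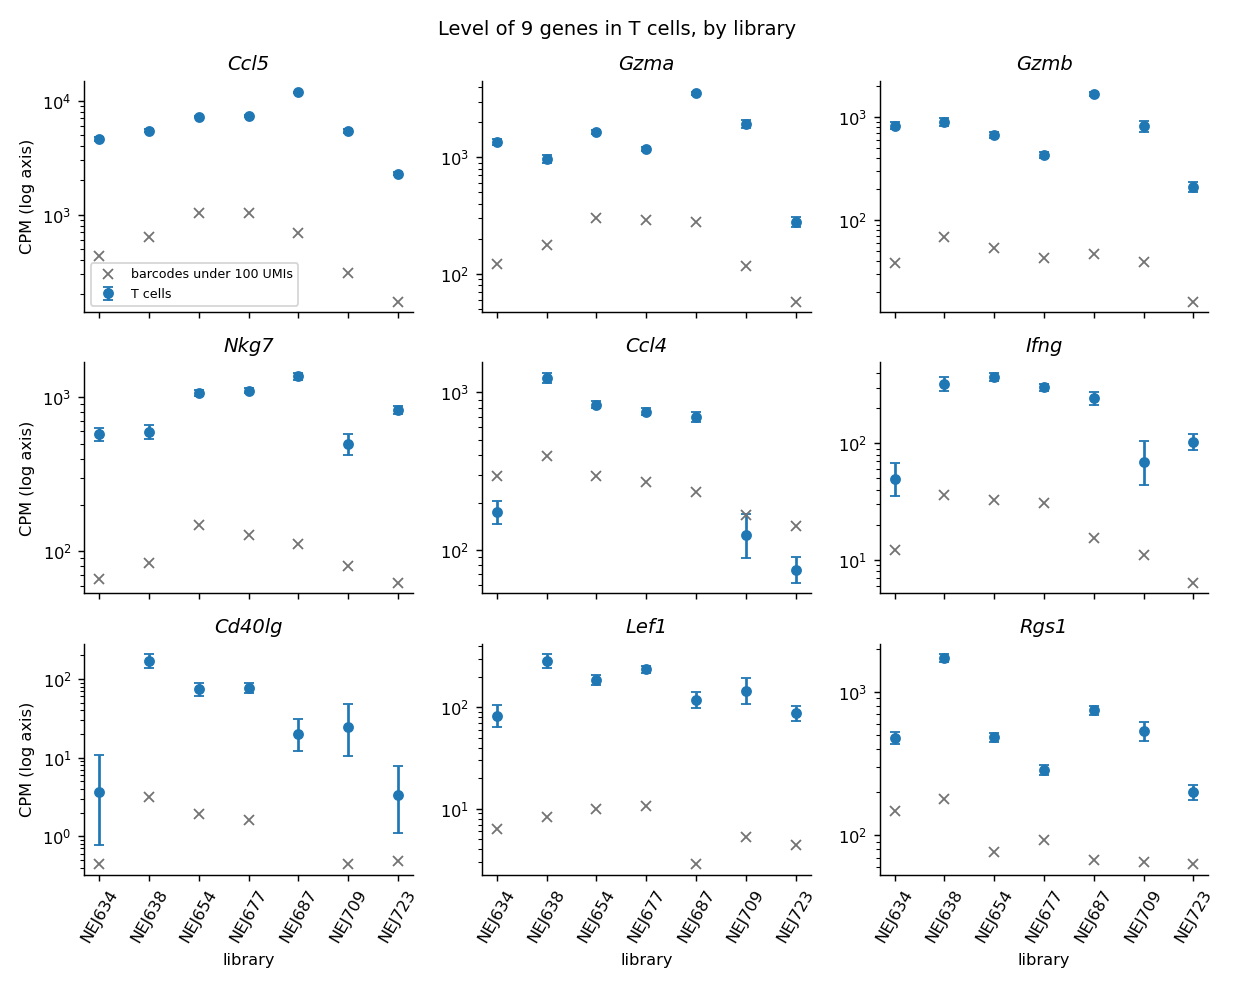
Level of 9 genes in T cells of each library in CPM on log axes, with exact 95% Poisson intervals as bars, and the level in barcodes under 100 UMIs as crosses (a level of 0 is not drawn). Ccl5, Gzma and Gzmb peak in NEJ687 and are lowest in NEJ723, while Cd40lg, Lef1 and Rgs1 peak in NEJ638.

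NK receptor genes were found in many of the cells that the rule took as T cells. NK cells, T cells with NK receptors and doublets of both cannot be told apart among these cells, and the cytotoxic and NK receptor levels given for T cells include them. The share with at least 1 UMI of Ncr1, Klrb1c or Klre1 was 15.3% in NEJ634, 26.1% in NEJ638, 24.9% in NEJ654, 21.7% in NEJ677, 31.6% in NEJ687, 25% in NEJ709 and 22.6% in NEJ723. T cells without any UMI of Trac, Trbc1 or Trbc2 were 0 to 7.86% of each library, with the highest share in NEJ638. Left without the cells that held an NK receptor UMI, the cytotoxic list summed to 6414 CPM in NEJ634, 5974 in NEJ638, 7723 in NEJ654, 9109 in NEJ677, 16535 in NEJ687, 5057 in NEJ709 and 2801 in NEJ723. The ratio of NEJ687 over NEJ723 was then 5.90, the range of Gzma 31.4-fold and that of Ccl4 8.61-fold. Gzma without them was at 943 CPM in NEJ634, 432 in NEJ638, 374 in NEJ654, 706 in NEJ677, 2289 in NEJ687, 316 in NEJ709 and 72.8 in NEJ723. NK cells themselves held Gzma at 1063 to 9280.5 CPM, on 3 to 105 cells a library.

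**Figure D5:**
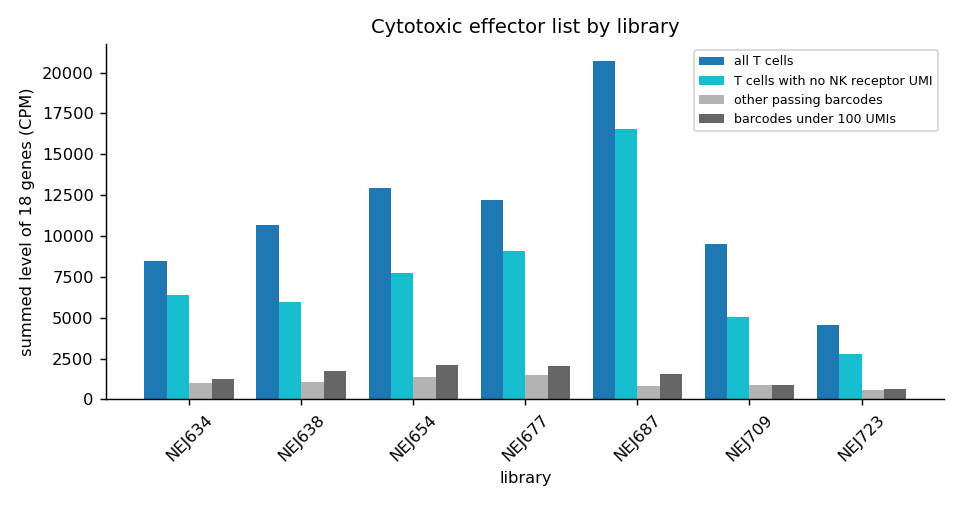
Summed level of the 18 cytotoxic effector genes in CPM per library in all T cells, in T cells with no UMI of Ncr1, Klrb1c or Klre1, in the other passing barcodes and in barcodes under 100 UMIs. NEJ687 is highest at 20712 CPM, or 16535 CPM without cells that hold an NK receptor UMI, and NEJ723 is lowest at 4583 and 2801 CPM.

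The innate-like and NK receptor list summed to 1804 CPM in NEJ634, 2678 in NEJ638, 2165 in NEJ654, 1478 in NEJ677, 2229 in NEJ687, 1747 in NEJ709 and 1292 in NEJ723. Free RNA held the list at 1895 CPM in NEJ634, 2001 in NEJ638, 2857 in NEJ654, 2412 in NEJ677, 2557 in NEJ687, 2166 in NEJ709 and 1709 in NEJ723, above the T cells in 6 of 7 libraries. By gene, 8 of 12 exceeded both the other passing barcodes and free RNA in all 6 libraries, beside 4.31% of all genes. At a median of at least 50 CPM it was 6 of 8, beside 19.8%. Fcer1g (427 to 681 CPM in T cells) and Tyrobp (161 to 728 CPM) exceeded free RNA in 0 of 6. In this list 5 of its 12 genes entered the wide range test, of which 4 were called, beside 19.3% of all genes tested. Klrd1 was at 288 CPM in NEJ634, 785 in NEJ638, 276 in NEJ654, 239 in NEJ677, 364 in NEJ687, 429.95 in NEJ709 and 389 in NEJ723 and was not called, though NEJ638 stood above the other libraries. Klrc1, which encodes NKG2A and pairs with CD94, ranged 9.61-fold from 12.7 CPM in NEJ723 to 122 in NEJ638. Klrc2, an activating relative, ranged 8.39-fold and Klre1 9.24-fold between the same libraries. Klre1 helps to define the cells that held an NK receptor UMI. No Klre1 UMI is left without those cells, so its range cannot be read there. Klra7, a Ly49 receptor, was highest in NEJ687 at 119.7 CPM and lowest in NEJ677 at 26.5 CPM. The Ly49 genes are near-identical relatives, and reads may be split between them. Zbtb16, the transcription factor PLZF of innate-like T cells, was at 3.71 CPM in NEJ634, 16.5 in NEJ638, 22.6 in NEJ654, 14.4 in NEJ677, 0.989 in NEJ687, 3.03 in NEJ709 and 2.01 in NEJ723, on 1 to 33 UMIs. Its highest values, in NEJ654, NEJ638 and NEJ677, were above 10 CPM, and the other libraries were under 5 CPM.

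Gamma delta T cells were gated by at least 2 UMIs of Trdc, Tcrg-C1, Tcrg-C2 and Tcrg-C4. Trac and Trbc2 count towards the 4 receptor UMIs of the T cell rule. A cell without these transcripts had to reach the limit on Cd3d, Cd3e and Cd3g alone. The shares are thus of cells that met the rule, and how many gamma delta cells it left out was not tested. They were 5.49% in NEJ634, 17.3% in NEJ638, 11.6% in NEJ654, 12.6% in NEJ677, 12.8% in NEJ687, 11.4% in NEJ709 and 10.8% in NEJ723 of T cells at full depth, and 1.23% in NEJ634, 10.9% in NEJ638, 4.17% in NEJ654, 4.32% in NEJ677, 5.13% in NEJ687, 2.27% in NEJ709 and 2.52% in NEJ723 after thinning. NEJ638 was highest at both depths. Its thinned interval of 7.67 to 14.9% lay above those of NEJ634, NEJ654 (2.56 to 6.36%), NEJ677 and NEJ723. The same interval overlapped that of NEJ687, the next highest library (2.68 to 8.79%), and that of NEJ709. At full depth the NEJ638 interval of 13.3 to 21.9% overlapped those of all other libraries except NEJ634. No B cell met the gate in any library, and 3 of 47 NK cells in NEJ687, 3 of 79 in NEJ723 and 1 of 3 in NEJ709 did at full depth. Trdc, the delta chain constant gene, was at 53.2 CPM in NEJ634, 170.2 in NEJ638, 62.2 in NEJ654, 63.0 in NEJ677, 109 in NEJ687, 78.7 in NEJ709 and 45.5 in NEJ723 in T cells. It was also present in NK cells at up to 163 CPM, so a Trdc UMI alone does not mark a gamma delta T cell. Variable segments were sparse, since the 6 Trdv genes in the files gave 1 to 30 UMIs a library, with Trdv4 the leading segment in each, and Tcrg-V1 led the gamma segments in NEJ638, NEJ654, NEJ677, NEJ687 and NEJ709.

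Gamma delta-gated cells had higher levels of Gzmb, Klre1, Rgs1 and Cd7 and lower levels of Lef1 than the other T cells in 7 of 7 libraries. These genes are examples from the lists, and how many other genes differ in this way in every library is not given. The gate was read at full depth here, where deeper cells meet it more easily. The gate held 5 cells in NEJ709, 14 in NEJ634 and 30 to 76 in the other libraries, and how many of these cells also held NK receptor UMIs was not tested. Gzmb was at 2299 CPM in NEJ634, 1923 in NEJ638, 1133 in NEJ654, 989 in NEJ677, 1892 in NEJ687, 1295 in NEJ709 and 776 in NEJ723 in gated cells and at 708 CPM in NEJ634, 706 in NEJ638, 615 in NEJ654, 339.99 in NEJ677, 1652 in NEJ687, 739.6 in NEJ709 and 143 in NEJ723 in the rest. Klre1 was at 109 to 583 CPM in gated cells and at 13.5 to 152 CPM in the rest. The smallest difference in Gzmb was in NEJ687, the library with the highest Gzmb outside the gate. Rgs1, a regulator of G protein signalling found in tissue-resident lymphocytes, was at 3264 against 1449 CPM in NEJ638. Cd7 stood at 439.9 to 1341 CPM in gated and 139 to 561 CPM in other T cells. Lef1 went the other way, at 24.4 to 94.9 CPM in gated and 85.3 to 331 CPM in other T cells. Il17a, the cytokine of a subset of gamma delta cells, had 0 to 8 UMIs in 6 libraries and 24 UMIs in NEJ654, of which 22 were in 1 cell.

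Genes of naive and circulating lymphocytes were highest in NEJ638 and NEJ677. Their list summed to 1313 CPM in NEJ634, 3039.9 in NEJ638, 2124 in NEJ654, 2523 in NEJ677, 1507 in NEJ687, 1980.2 in NEJ709 and 1401 in NEJ723. B cells were also highest there, at 2551 CPM in NEJ638 and 2563 CPM in NEJ677, as was free RNA at 1238 and 1142 CPM. Lef1, a transcription factor of naive T cells, was at 82.8 CPM in NEJ634, 287 in NEJ638, 186 in NEJ654, 236 in NEJ677, 119 in NEJ687, 145 in NEJ709 and 87.0 in NEJ723, above free RNA of 2.85 to 10.7 CPM in each library. It was highest in NEJ638 and NEJ677, whose intervals of 246 to 333 and 216 to 257 CPM overlap, and lowest in NEJ634 and NEJ723. Ccr7, the lymph node homing receptor, was called at 4.53-fold, from 50.7 CPM in NEJ634 to 229.6 in NEJ638. B cells of the same libraries held it at 119 and 413 CPM, 3.49-fold apart. Dapl1, a gene of naive T cells, was called at 4.46-fold, from 27.2 CPM in NEJ634 to 121 in NEJ677. Tcf7, Il7r, Lef1 and Satb1 were tested and not called.

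Ccl5 was seen in a smaller share of cells with Lef1 than of cells without it. Among thinned cells with a Lef1 UMI, Ccl5 was seen in 11 of 64 in NEJ638, 18 of 80 in NEJ654 and 25 of 140 in NEJ677. Among cells without one it was seen in 153 of 248, 224 of 400 and 272 of 462 cells in the same order. The share was lower with Lef1 in 7 of 7 libraries, with 5 to 24 Lef1 cells in NEJ634, NEJ687, NEJ709 and NEJ723. Within the Cd8 gate, Ccl5 was seen in 46 of 54 thinned cells in NEJ687 and in 24 of 88 in NEJ723. Outside the gate it was seen in 120 of 180 and 102 of 190 cells, so the share was higher inside the gate in NEJ687 and lower in NEJ723. The Ccl5 share was also higher inside the gate in NEJ677, and lower in NEJ634, NEJ638, NEJ654 and NEJ709. Gzmb was likewise seen in 29 of 54 cells inside and 77 of 180 outside in NEJ687, and in 5 of 88 inside and 26 of 190 outside in NEJ723. Its share was lower inside the gate in NEJ638, NEJ654, NEJ709 and NEJ723.

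Tissue residency genes were led by Rgs1, at 476 CPM in NEJ634, 1722 in NEJ638, 483 in NEJ654, 286 in NEJ677, 743 in NEJ687, 533 in NEJ709 and 199 in NEJ723. NEJ638 was highest and NEJ723 lowest, 8.66-fold apart. Cxcr6, the receptor that keeps T cells in the liver sinusoids, was at 38.3 CPM in NEJ634, 114 in NEJ638, 159 in NEJ654, 85.9 in NEJ677, 48.5 in NEJ687, 12.1 in NEJ709 and 34.8 in NEJ723, highest in NEJ654 and lowest in NEJ723 among the libraries of at least 50 cells. After thinning, 13.8% (10.8 to 17.2) of T cells in NEJ654 held a Cxcr6 UMI against 5.04% (2.78 to 8.31) in NEJ723. NEJ723 was not the lowest at this depth, since NEJ634 had 3.69% (1.70 to 6.89) and NEJ687 4.27% (2.07 to 7.72). Cxcr6 was higher in gamma delta-gated than in Cd8-gated cells in 7 of 7 libraries, with 296 against 64.8 CPM in NEJ654. The gamma delta gate held only 5 cells in NEJ709 and 14 in NEJ634. Of all T cells there, 4 and 18 held a Cxcr6 UMI. Cd69, an early activation and retention marker, was at 91.5 to 296 CPM and not called. Itgae, the integrin of epithelial residency, and Zfp683, which encodes Hobit, were at most at 24.7 and 6.16 CPM.

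Foxp3 transcripts were seen in few cells. Foxp3, their defining transcription factor, was seen in 3 of 255 cells in NEJ634, 4 of 318 cells in NEJ638, 4 of 482 cells in NEJ654, 7 of 605 cells in NEJ677, 5 of 234 cells in NEJ687, 3 of 44 cells in NEJ709 and 4 of 279 cells in NEJ723. No B or NK cell held a Foxp3 UMI. These are counts of cells with a UMI, and low capture of the transcript and few regulatory T cells cannot be told apart here. The intervals of these shares overlap between all libraries, with the widest for NEJ709 at 1.43 to 18.7%. Other genes of the list that regulatory cells share with activated T cells were higher. NK cells also held the whole regulatory list, from 160 CPM in NEJ723 to 638 CPM in NEJ638, the latter on 5 cells. T cells of the same libraries held it at 278 and 866 CPM. Ikzf2, which encodes Helios, was called at 6.66-fold and stood at 498 CPM in NEJ634, 529 in NEJ638, 79.3 in NEJ654, 96.3 in NEJ677, 242 in NEJ687, 242 in NEJ709 and 175 in NEJ723. NEJ634 and NEJ638 were highest and NEJ654 and NEJ677 lowest. Tnfrsf9, the costimulatory receptor 4-1BB, ranged 9.30-fold from 11.4 CPM in NEJ723 to 106 in NEJ687, but 3.24-fold with at least 0.3% receptor UMIs, short of the 4-fold limit.

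Of 11 checkpoint and exhaustion genes, only Nr4a2 and Cd160 reached the level for the wide range test, and neither was called, beside 19.3% of all genes tested. Pdcd1, which encodes PD-1, was at 28.4 CPM in NEJ634, 29.7 in NEJ638, 19.2 in NEJ654, 22.5 in NEJ677, 60.3 in NEJ687, 9.08 in NEJ709 and 2.01 in NEJ723. It was highest in NEJ687, where 37 of 234 T cells held a UMI, and lowest in NEJ723, where 3 of 279 did. These shares are 15.8% (11.4 to 21.1) and 1.08% (0.222 to 3.11), and the cells of NEJ723 were the deeper ones. No B or NK cell held a Pdcd1 UMI. Havcr2, which encodes TIM-3, had 0 to 13 UMIs and Tigit 2 to 18 UMIs a library. Ctla4 was at 16.7 to 91.0 CPM and Lag3 at 4.02 to 25.3 CPM. Nr4a2, a nuclear receptor induced by receptor signalling, was at 377 CPM in NEJ634, 953 in NEJ638, 249.7 in NEJ654, 269 in NEJ677, 488 in NEJ687, 494 in NEJ709 and 256 in NEJ723, highest in NEJ638 and 3.82-fold over the lowest library, NEJ654.

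Helper cytokines were found in few cells. Il4, the cytokine of type 2 help and of NKT cells, had 0 UMIs in NEJ634, 16 in NEJ638, 122 in NEJ654, 57 in NEJ677, 1 in NEJ687, 0 in NEJ709 and 0 in NEJ723. The UMIs of NEJ654 came from 42 cells, with 15 in the cell that held the most, so the level was not set by 1 cell. B cells and free RNA held Il4 at no more than 5.72 CPM, against 83.4 CPM in T cells of NEJ654. Il13 had 0 to 9 UMIs a library, Il2 0 to 9, Csf2 0 to 12 and Il21 0 to 2. Icos was called at 10.1-fold, from 30.1 CPM in NEJ723 to 304 in NEJ638. Rora, a nuclear receptor of innate-like and type 17 cells, ranged 9.42-fold between the same libraries, or 5.86-fold with each cell weighted equally. Ltb, a cytokine of lymphoid tissue, was at 189 CPM in NEJ634, 199.9 in NEJ638, 586 in NEJ654, 471 in NEJ677, 325 in NEJ687, 276 in NEJ709 and 203 in NEJ723 and was not called. NEJ654 and NEJ677 were highest for Ltb.

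Among the other chemokine receptors, Cxcr3, the receptor for interferon-induced chemokines, was at 6.06 to 69.8 CPM and highest in NEJ654. Cxcr5, Ccr4, Ccr6 and Ccr8, receptors of follicular, type 2, type 17 and regulatory cells, had 0 to 11 UMIs in each library.

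The 93 genes of wide range had their highest level in NEJ638 for 68 genes and in NEJ687 for 13, and their lowest level in NEJ723 for 66. Of the 93, 48 were measured in B cells of the same highest and lowest libraries. There 33 were at least 2-fold apart in the same direction, 8 of them at least 4-fold, and 5 went the other way. Without NEJ638 the count was 33 of 372 genes tested, and without NEJ723 it was 47 of 479. NEJ638 is also the library with the shallowest T cells and the highest mitochondrial share, and the part of these in its calls was not tested. Beside the genes already named, the 15 widest included Dgat1, an enzyme of triglyceride synthesis, at 268 CPM in NEJ638 and 13.4 CPM in NEJ723. Dusp10, a phosphatase of stress kinases, was at 271 and 18.7 CPM in the same libraries. Gimap7, a GTPase of lymphocytes, was at 152 CPM in NEJ677 and 13.4 CPM in NEJ723. B cells of the same libraries held it at 33.5 and 1.51 CPM, on 90 and 3 UMIs. Orai1, the pore of the calcium channel opened by receptor signalling, was at 173 CPM in NEJ687 and 17.4 CPM in NEJ723. Sult2b1, a sulfotransferase of sterols, ranged 9.60-fold between NEJ638 and NEJ723.

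The summed level of cell cycle genes stood above its surroundings in some libraries. The list of 15 genes summed to 4445 CPM in NEJ634, 2098 in NEJ638, 2007 in NEJ654, 2806 in NEJ677, 3324 in NEJ687, 2709.9 in NEJ709 and 2195 in NEJ723 in T cells. The sum was above both the other passing barcodes and free RNA in NEJ634 (3516 and 3029.7 CPM), NEJ654 (1044 and 1553) and NEJ677 (643 and 1379), and below both in NEJ687, NEJ709 and NEJ723. Hmgb2 was the largest member, at 1891 CPM of the sum in NEJ634 and 917 CPM in NEJ654. None of the 15 genes exceeded the other barcodes or free RNA in all 6 libraries. Single genes exceeded the other barcodes in 0 libraries (Tk1) to 4 libraries (Pcna and Hmgb2). A UMI of Mki67 or Top2a was seen in 39.8% of thinned T cells in NEJ634 and in 5.77% to 22.7% elsewhere. B cells had 28.9% in NEJ634 and 1.66 to 18.1% elsewhere. In the free RNA of NEJ634 Mki67 was at 262 CPM against 396 CPM in T cells.

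Interferon-induced genes summed to 935 CPM in NEJ634, 1051 in NEJ638, 2519.8 in NEJ654, 1963 in NEJ677, 1262 in NEJ687, 957 in NEJ709 and 436 in NEJ723, highest in NEJ654 and lowest in NEJ723. The largest member, Ifi27l2a, was at 382 CPM in NEJ634, 527 in NEJ638, 1317 in NEJ654, 983 in NEJ677, 397 in NEJ687, 282 in NEJ709 and 109.8 in NEJ723. Free RNA held the whole list at 1064 CPM in NEJ634, 1651 in NEJ638, 3168 in NEJ654, 2705 in NEJ677, 1333 in NEJ687, 1609 in NEJ709 and 756 in NEJ723, which was above the T cells in 7 of 7 libraries. No gene of the list was tested for a wide range, because none reached 100 CPM with 2 times the level of the other barcodes in its highest library. Immediate early and heat shock genes, which dissociation of tissue also induces, summed to 4593 CPM in NEJ723 and to 9321 CPM in NEJ638. Of 5 tested, 1 (Nr4a1) was called, beside 19.3% of all genes tested. Myc itself was at 24.2 to 70.3 CPM in T cells against 21.6 to 63.9 CPM in the other barcodes, and no gene of the metabolic and growth list was tested for a wide range. The human transgene is not a feature of the mouse gene list and was not analysed here.

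The 10 thymocyte genes summed to 134 to 317 CPM, most of it from Tcf12, a transcription factor of many cell types, at 72.5 to 180.1 CPM, and from Rmnd5a at 35.6 to 107 CPM. Tcf12 exceeded the other barcodes and free RNA in 6 of 6 libraries. The genes of receptor rearrangement were at or near 0. Rag2 had no UMI in any library, Rag1 had at most 2 UMIs and Dntt at most 5, and Ptcra, the pre-receptor alpha chain, had at most 2. Rag1 or Dntt was seen in 0 to 3 T cells a library at full depth, whereas the share of B cells that held one was 1.17% in NEJ677 and 1.34% in NEJ654, 7.30% in NEJ638, and 16.4% to 24.1% in the other libraries. Beta chain variable segments gave 11 to 146 UMIs a library and alpha chain segments 12 to 113, too few to describe clones.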

How the data were processed

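UMI counts were taken as deposited. The authors had aligned reads and counted UMIs per gene for 32285 mouse genes with Cell Ranger. Its release is 6.0 per the labels and 4 per the file headers, a difference that was not resolved. The deposited counts list 1612660 (NEJ654) to 2733475 (NEJ687) barcodes a library. They are not filtered to called cells, so the limits alone chose the passing barcodes. The study's methods say that reads in introns were counted, and whether this holds for the deposited files was not resolved either, so UMIs may include unspliced RNA. The genome build is not given in the sources used here. Members and gene lists were chosen with earlier results of these data known. UMIs were summed over the T cells of each library and divided by base UMIs, with exact 95% Poisson and Clopper-Pearson intervals, which cover counting error only. Genes with 0 UMIs were set to 3 UMIs for folds. Named genes were those of 24 lists (244 of 245 entries found), the 12 called genes with the largest fold in each direction between gates, and the 15 of widest range, some of which are not reported here. Both calls were tested on simulated data. No doublet caller was run, and T cells with at least 5 UMIs of other lineages were left out in an alternative. Other alternatives changed the limits on UMIs, receptor UMIs and mitochondrial share, the thresholds of fold and level, the total, the weighting of cells and the libraries used. Python 3.11.15, numpy 2.4.6, scipy 1.17.1, pandas 2.3.3 and matplotlib 3.10.9 were used.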

Additional observations from a re-analysis of the deposited data

Results flagged for a closer look

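Outside the T cells described, 71 barcodes of over 500 and up to 1000 UMIs met the rest of the rule, 37 of them in NEJ654 and 20 in NEJ677. These shallow barcodes drew attention because they carry receptor transcripts but lie outside the rule, and they entered only the alternative with over 500 UMIs. A further 27 passing barcodes met the receptor limits and held at least 2 UMIs of Cd79a and Cd79b, 16 of them in NEJ677 and 6 in NEJ654. They hold transcripts of both lymphocyte lineages and were left out by the rule.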

How the results depend on the processing

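No paired analysis was possible because the labels give no groups and no replicate numbers. The number of T cells was 1441 with at least 0.3% receptor UMIs, and 1612 to 2173 with 1 library left out. The ratio of NEJ687 over NEJ723 for the cytotoxic list was 3.82 with at least 0.3% receptor UMIs, 4.70 with at most 10% mitochondrial UMIs, 4.68 with all UMIs as total, 4.18 with each cell weighted equally and 5.90 without T cells that held an NK receptor UMI, an alternative chosen after seeing the data. Without those cells 19 genes were higher in the Cd8 gate, 7 of them among the 9, and 53 in the Cd4 gate, 18 of them among the 21, and Fcer1g turned to -0.13. Without T cells of at least 5 other-lineage UMIs the counts were 23 and 46. They were 17 and 70 at 50 CPM, and the Cd4 count was 8 at 3-fold and 13 at 200 CPM. In 1 library alone the counts were 17 to 23 and 48 to 113 (9 and 21 where a library outside the pair was left out). Wide range was called for 22 genes at 8-fold, 156 at 50 CPM, 56 at 200 CPM and 59 at 4-fold over the other barcodes, and for 33 to 93 with 1 library left out (33 without NEJ638 and 47 without NEJ723). Cd8-gated cells outnumbered Cd4-gated cells in every library under all alternatives, with Cd8a and Cd8b1 together set against Cd4 alone. Of the other values 683 moved by less than their counting interval and 82 by more. The gate of 2 UMIs was not run for gene calls. Low UMI counts of Cd4 and Foxp3 limit what can be read from their shares, and the 44 cells of NEJ709 limit its values.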
